A study of Callithrix jacchus with 54 samples.

Results

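The glucocorticoid receptor gene NR3C1 and 8 genes known as its transcriptional targets, FKBP5, TSC22D3, PER1, DUSP1, KLF9, SGK1, ZBTB16 and TAT, were followed in common marmoset cells that were driven towards primordial germ cell-like cells (PGCLCs). The members were chosen by name, as known targets of the receptor, with earlier results of these data known, and 8 of the 9 had a row among the 14812 genes of the expression table, the exception being ZBTB16. Of these 8, 6 reached a log2(TPM + 1) of at least 1.5 in at least 1 library and entered the test, while NR3C1 and PER1 did not. TPM, transcripts counted per fixed number of all transcripts, is a level corrected for transcript length and library size.

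The glucocorticoid receptor is a transcription factor that waits in the cytoplasm on HSP90 chaperones, enters the nucleus when it binds a glucocorticoid such as the synthetic steroid dexamethasone, and turns on genes next to its response elements. FKBP5, a co-chaperone that lowers the hormone affinity of the receptor, and TSC22D3, a leucine zipper protein also called GILZ, are among its best known targets in many tissues. TAT, tyrosine aminotransferase, which carries out the first step of tyrosine breakdown, is a classical target in liver. The question has a practical side here, because the SOX17 transgene of this study was a fusion with the hormone-binding part of the glucocorticoid receptor (SOX17-GR), and dexamethasone was the agent that switched it on.

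All cells came from the female marmoset embryonic stem cell (cjESC) line CMES40 with BLIMP1-tdTomato and NANOS3-eGFP reporters, and every one of 27 conditions had 2 libraries, 54 in all. The cells labelled TG+, which carried rtTA, tetO-BLIMP1, SOX17-GR and a TFAP2C transgene, were sampled as cjESCs in DK20FA medium and at 12, 24, 48 and 96 h of induction. Their 3 induction media were BLSE (BMP4, LIF, SCF and EGF), SOX17+BLSE (BLSE with dexamethasone) and SOX17+LSE (the same without BMP4). The cells labelled wild type, without these transgenes, were sampled as cjESCs in PESFA medium, after pre-treatment with IM12 and activin A, and at the same 4 times in BLSE+IWR1 (IWR1 is a WNT inhibitor) and BLSE+IWR1+BMS (with the retinoic acid receptor inverse agonist BMS493). They were also sampled at day 6 in BLSE+IWR1 and at days 20, 40 and 70 in xenogeneic reconstituted ovaries (xrOvary) made with mouse gonadal somatic cells. All induction media also held a Rock inhibitor. Dexamethasone was thus in 8 conditions and 16 libraries, always with the SOX17-GR transgene. No condition had dexamethasone in cells without it, so an action of dexamethasone on the cells and one of SOX17 cannot be told apart. At 96 h the SOX17 conditions and the IWR1 conditions were sorted for BLIMP1-tdTomato and BLSE was not, which also cannot be told apart from the treatment in comparisons with BLSE at that time.

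Replicate libraries had correlations across genes between 0.977 and 0.994, and no 2 libraries were identical. Per the study's methods the 2 libraries of a condition were biological duplicates, from cells of 1 line, so that p-values measure the spread between such duplicates. TPM keeps no read depth, hence the precision of low values is not known, and between 10146 and 12688 genes were above 0 per library. The summed TPM of 4 pluripotency markers (POU5F1, NANOG, SOX2 and PRDM14) lay between 3712 and 4668 in cjESCs of both media. That of 6 PGC markers (SOX17, PRDM1, TFAP2C, NANOS3, KIT and PDPN) lay between 2398 and 3377 in the sorted cells of 96 h in all 4 conditions that were sorted, against 256 to 290 in unsorted BLSE cells. PRDM1 is BLIMP1, on whose reporter these cells were sorted, so part of the difference from BLSE was set by the sorting. The TG+ cells also carried SOX17, BLIMP1 and TFAP2C as transgenes. The SOX17+LSE cells of 96 h, whose label is differentiated cells and not cjPGCLC, were within that sorted range, at 2514 to 2727. These are bulk libraries, in which fewer cells of a type and less RNA per cell cannot be told apart.

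The mRNA of the receptor itself was scarce. NR3C1 (gene 100394916) had a median far below 1 TPM in every treatment series, was listed at 0 in 6 of the 54 libraries and reached its highest level, 1.73 TPM, in 1 library of cjESCs in PESFA. The other library of that condition held 0.63 TPM, and the pre-treated cells 0.23 and 1.03 TPM. The cjESCs in DK20FA, which carry the SOX17-GR transgene, held 0.07 and 0 TPM, so no signal from the receptor part of the transgene stood out at NR3C1 in these cells. Reads of the transgene and of the gene could not be told apart in this table. With dexamethasone, NR3C1 lay between 0.12 and 0.92 TPM over the 8 libraries of SOX17+BLSE, and without it, between 0 and 0.4 TPM over the 8 libraries of BLSE. At 96 h SOX17+BLSE held 0.92 and 0.9 TPM, and the gene was at 0.36 and 0.68 TPM in SOX17+LSE, at 0.8 and 0.83 TPM in BLSE+IWR1 and at 0 in both BLSE libraries. The 2 sorted conditions at 0.8 TPM or above, 1 with dexamethasone and 1 without, lay above all BLSE libraries. In a model without the filter on low values, over 14394 genes, the difference between SOX17+BLSE and BLSE at 96 h was 0.93 on the log2(TPM + 1) scale (adjusted p = 0.000134, limma) and that between BLSE+IWR1 and BLSE 0.86 (adjusted p = 0.000373), but all these levels were below 1 TPM.

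**Figure D1:**
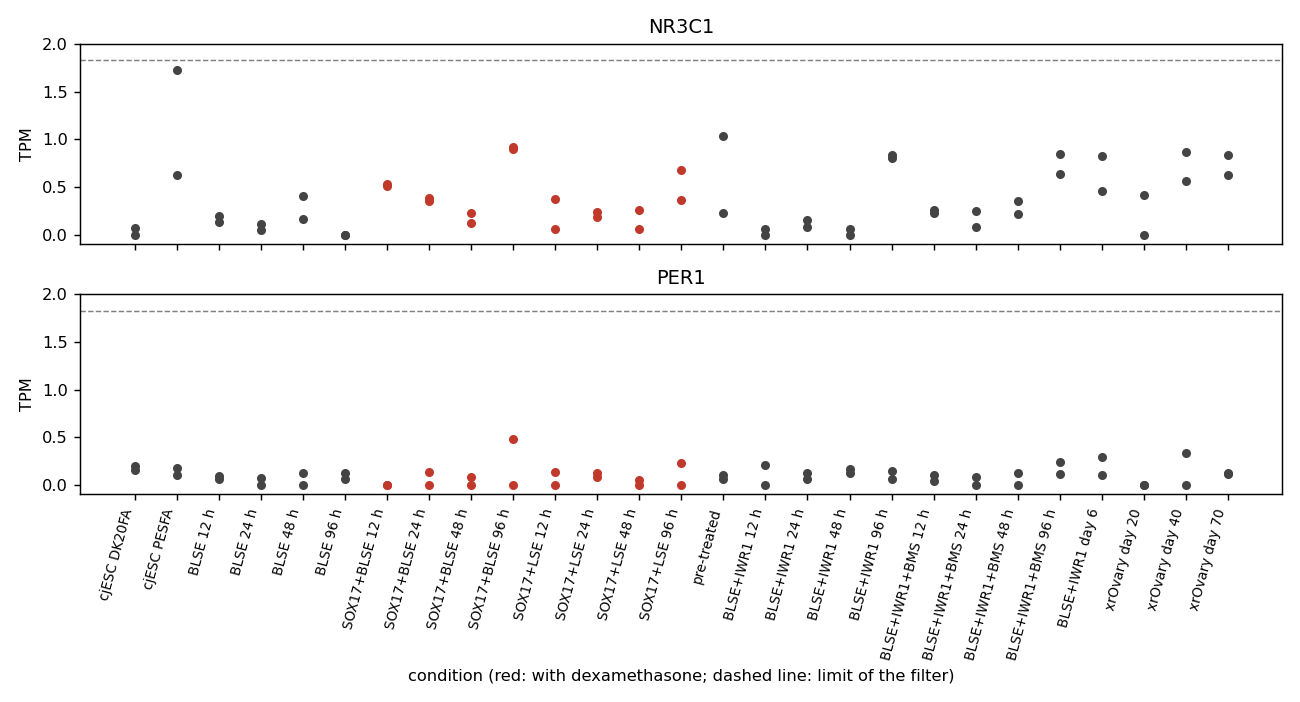
TPM of NR3C1 and PER1 in each of the 54 libraries, 1 point per library, by condition, with the conditions that had dexamethasone in red. All points lie under the limit of the filter on low values (dashed line), NR3C1 reaching 1.73 TPM in cjESC PESFA and PER1 0.48 TPM in SOX17+BLSE at 96 h.

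PER1 (gene 100390005), a circadian clock repressor that glucocorticoids induce in many cells, was lower still. It was listed at 0 in 16 of the 54 libraries and did not exceed 0.48 TPM. The 8 libraries of SOX17+BLSE had a median of 0 TPM, and those of SOX17+LSE and of BLSE both a median of 0.065 TPM. At 12 h, both SOX17+BLSE libraries were at 0 while BLSE held 0.09 and 0.06 TPM. At levels this near 0 a lack of difference says little.

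FKBP5 (gene 100413287) was the most abundant target in most conditions and was lower, not higher, with dexamethasone and SOX17. Over the 8 libraries of each series its lowest, median and highest levels were 71.7, 107 and 178 TPM for BLSE, 22.7, 63.7 and 78.4 TPM for SOX17+BLSE, and 33.2, 72.5 and 86.8 TPM for SOX17+LSE. At 12 h the BLSE libraries held 96.7 and 84.0 TPM, whereas SOX17+BLSE held 78.4 and 64.5 TPM, with no overlap. The difference on the log2(TPM + 1) scale was −0.34 (95% interval −0.69 to 0.01, adjusted p = 0.366), an interval that lay almost wholly below 0. At 24 h it was −0.57 (interval −0.92 to −0.21, adjusted p = 0.0248, limma), which missed the threshold of 0.01 used for a call. The BLSE libraries of 24 h lay apart, at 107 and 71.7 TPM. Without 1 library the difference ranged from −0.85 to −0.28. At 48 h SOX17+BLSE held FKBP5 at 64.4 and 65.1 TPM, below the 114 and 107 TPM of BLSE, and the difference was called (−0.76 ± 0.17 SE, adjusted p = 0.000996). Leaving out either SOX17+BLSE library or the first BLSE library raised the adjusted p to between 0.011 and 0.0161. In SOX17+LSE the differences at 12, 24 and 48 h were −0.27, −0.23 and −0.46, none of them called, and that at 24 h turned to 0.05 without the first BLSE library.

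The fall of FKBP5 at 96 h was also seen in sorted cells that had received no dexamethasone. At that time SOX17+BLSE held 28.5 and 22.7 TPM, next to 33.2 and 39.0 TPM in SOX17+LSE, 24.9 and 28.3 TPM in BLSE+IWR1, 26.95 and 25.6 TPM in BLSE+IWR1+BMS, and 178 and 155 TPM in unsorted BLSE. The 4 sorted conditions all lay below every BLSE library. FKBP5 differed from BLSE by −2.66 ± 0.17 in SOX17+BLSE (adjusted p = 1.61e-15), by −2.18 in SOX17+LSE (adjusted p = 4.46e-13) and by −2.60 in BLSE+IWR1 (adjusted p = 3.4e-15). Between the sorted cells of SOX17+BLSE and BLSE+IWR1 the difference was −0.06, with an interval from −0.41 to 0.29. The level was 28.7 and 24.5 TPM at day 6 and 12.9 and 12.6 TPM in xrOvaries at day 70, where FKBP5 was lowest.

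TSC22D3 (gene 100407190) did not pass the test against BLSE up to 48 h. At 12 h SOX17+BLSE held 4.62 and 6.74 TPM, next to 4.4 and 2.91 TPM in SOX17+LSE and 4.71 and 3.19 TPM in BLSE. The libraries of both SOX17 conditions overlapped with those of BLSE, but not with each other, and SOX17+LSE differed from SOX17+BLSE by −0.52 (interval −1.13 to 0.09). The difference between SOX17+BLSE and BLSE was 0.43 at 12 h (interval −0.18 to 1.04), −0.17 at 24 h (−0.77 to 0.44) and 0.55 at 48 h (−0.06 to 1.15). That between SOX17+LSE and BLSE was −0.09 at 12 h, −0.30 at 24 h and 0.72 at 48 h (0.11 to 1.33, adjusted p = 0.0818, limma). At 48 h SOX17+BLSE held 4.72 and 4.78 TPM and SOX17+LSE 6.73 and 4.42 TPM, all above the 2.47 and 3.46 TPM of BLSE. At 96 h SOX17+BLSE held 13.9 and 16.8 TPM and BLSE 3.35 and 3.47 TPM, a difference of 1.89 ± 0.30 (adjusted p = 1.62e-06). SOX17+LSE, which also had dexamethasone, was at 7.17 and 5.29 TPM and lower than SOX17+BLSE by 1.18 (log2 difference −1.18, adjusted p = 0.0057). Without dexamethasone the sorted cells held 7.11 and 4.36 TPM in BLSE+IWR1 and 11.2 and 10.8 TPM in BLSE+IWR1+BMS at 96 h, and 13.3 and 12.7 TPM at day 6. SOX17+BLSE was above BLSE+IWR1 at 96 h by 1.31 (adjusted p = 0.00271), while the day 6 libraries lay just under those of SOX17+BLSE. In xrOvaries at day 20 the level was 2.30 and 1.14 TPM, 2.40 lower than at day 6 on the log2 scale (log2 difference −2.40, adjusted p = 6.74e-08).

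DUSP1 (gene 100393730), a phosphatase that switches off MAP kinases, had lower levels in most libraries of the SOX17 conditions than in BLSE. Its 8 libraries had lowest, median and highest levels of 34.5, 43.7 and 52.7 TPM for BLSE, 19.8, 32.7 and 40.9 TPM for SOX17+BLSE, and 21.9, 24.8 and 29.5 TPM for SOX17+LSE, so that the SOX17+LSE range lay wholly below the BLSE range. The starting cjESCs in DK20FA held 23.5 and 25.1 TPM, so this was not a fall from the start in SOX17+LSE. From these cells BLSE was higher by 1.08 at 12 h (adjusted p = 0.00332, limma). SOX17+LSE differed from them by 0.07, 0.04, −0.004 and 0.06 from 12 to 96 h, and SOX17+BLSE by −0.07 at 96 h. At 12 h SOX17+BLSE held 39.1 and 38.0 TPM, next to 26.6 and 24.4 TPM in SOX17+LSE and 52.0 and 52.7 TPM in BLSE. The difference in SOX17+LSE was −1.01 ± 0.26, which just missed the threshold (adjusted p = 0.0101), and that in SOX17+BLSE was −0.43 (adjusted p = 0.466). The only call was at 96 h in SOX17+BLSE, with 26.7 and 19.8 TPM against 41.9 and 43.7 TPM in BLSE (−0.87, adjusted p = 0.00435). Without the second SOX17+BLSE library this was −0.66 (adjusted p = 0.0796), and it also lost the call without either BLSE library (adjusted p = 0.0198 and 0.0292).

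KLF9 (gene 100388503), a zinc finger transcription factor, was the second member after TAT that was called higher than in BLSE with dexamethasone and SOX17 before 96 h. At 48 h SOX17+BLSE held 3.42 and 3.86 TPM and SOX17+LSE 5.20 and 4.69 TPM, against 0.64 and 1.76 TPM in BLSE, with no overlap. The differences were 1.12 ± 0.25 (adjusted p = 0.000902) and 1.48 ± 0.25 (adjusted p = 2.24e-05). In SOX17+BLSE the call was lost without the first BLSE library (0.75, adjusted p = 0.0742) and without the second SOX17+BLSE library (1.05, adjusted p = 0.0169). It was also lost when only the libraries compared were fitted (adjusted p = 0.0785), as were the KLF9 calls in SOX17+LSE at 24, 48 and 96 h (adjusted p = 0.0725, 0.0475 and 0.0152). In SOX17+LSE KLF9 was also higher at 24 h (1.06, adjusted p = 0.00223), a call that was lost without any 1 of the 4 libraries (adjusted p from 0.0143 to 0.0304). At 96 h it was 1.16 higher (adjusted p = 0.000213), a call that quantile normalization ended (0.73, adjusted p = 0.0117). The starting cells in DK20FA held 4.12 and 5.09 TPM, which overlapped with SOX17+LSE at 48 h and lay above SOX17+BLSE. KLF9 fell from there in BLSE, by 1.05 at 24 h (adjusted p = 0.00246), 1.39 at 48 h (adjusted p = 4.57e-05) and 1.2 at 96 h (adjusted p = 0.000211). Its highest levels were in cells without dexamethasone, at 10.7 and 13.2 TPM in cjESC PESFA, 7.27 and 12.14 TPM in pre-treated cells and 9.21 and 8.52 TPM in xrOvaries at day 70.

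SGK1 (gene 100389266), a kinase that raises sodium transport in epithelia, was low throughout, at 6.81 TPM or less. At 12 h SOX17+BLSE held 2.17 and 3.02 TPM, next to 1.46 and 2.86 TPM in SOX17+LSE and 2.20 and 3.62 TPM in BLSE, which overlapped. The difference between SOX17+BLSE and BLSE was −0.11 at 12 h and 0.09 at both 24 and 48 h, with intervals that reached from −0.74 to 0.72 over the 3 times. At 96 h SOX17+BLSE held 0.56 and 1.88 TPM and SOX17+LSE 1.48 and 1.63 TPM, below the 5.86 and 3.93 TPM of BLSE (−1.46, adjusted p = 0.000151, and −1.19, adjusted p = 0.00164). The first value became −1.01 without the first SOX17+BLSE library (adjusted p = 0.0214), and the second lost its call without the first library of either condition (adjusted p = 0.0164 and 0.0417). In sorted BLSE+IWR1 cells of 96 h SGK1 was nearly absent, at 0.26 and 0.14 TPM, and in xrOvaries at day 20 it was listed at 0 in both libraries.

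**Figure D2:**
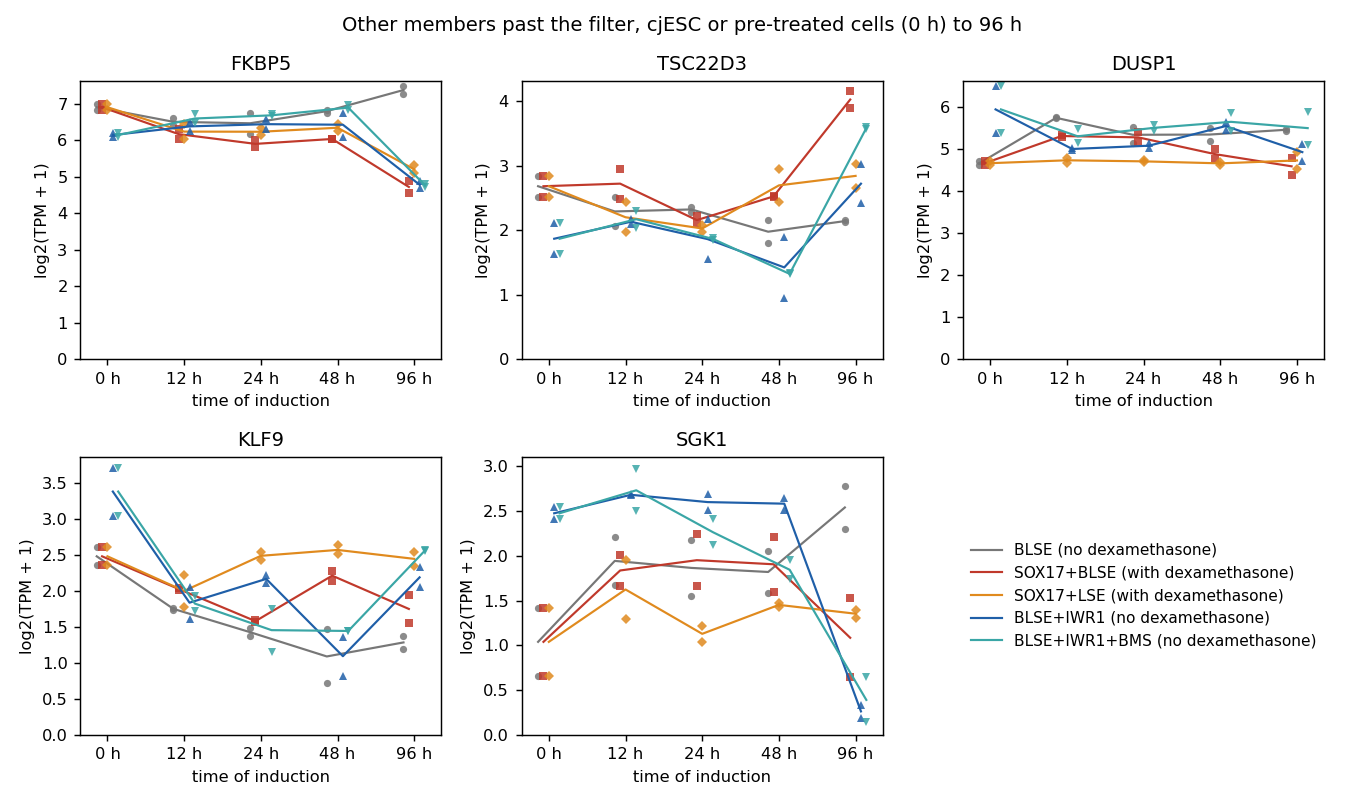
log2(TPM + 1) of 5 members against the time of induction in 5 series, 1 point per library and lines through the means of 2 libraries. The 0 h points are cjESC DK20FA for BLSE, SOX17+BLSE and SOX17+LSE and pre-treated cells for the IWR1 series, so series share them. FKBP5 falls at 96 h in the 4 sorted series with and without dexamethasone, and KLF9 at 48 h is higher in both SOX17 series than in BLSE.

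TAT (gene 100410667) was the member that rose most. In BLSE it stayed at 1.2 TPM or less, with 0.85 and 0.80 TPM at 12 h, 1.2 and 0.93 TPM at 24 h, 0.18 and 0.65 TPM at 48 h and 0.20 and 0 TPM at 96 h. With dexamethasone and BMP4 (SOX17+BLSE) it stood at 2.42 and 5.19 TPM at 12 h, 3.97 and 4.24 TPM at 24 h, 32.4 and 37.0 TPM at 48 h and 104 and 178 TPM at 96 h. Every SOX17+BLSE library therefore lay above every BLSE library. The starting cjESCs in DK20FA held 1.92 and 1.51 TPM. From these cells SOX17+BLSE differed by 0.77 at 12 h (adjusted p = 0.181, limma) and 0.91 at 24 h (adjusted p = 0.072). BLSE differed from them by −0.57 (adjusted p = 0.367) and −0.39 (adjusted p = 0.521). The difference between SOX17+BLSE and BLSE was 1.33 ± 0.38 at 12 h (adjusted p = 0.0317) and 1.31 ± 0.38 at 24 h (adjusted p = 0.0156), which missed the threshold. It was 4.67 ± 0.38 at 48 h (adjusted p = 5.91e-12) and 6.97 ± 0.38 at 96 h (adjusted p = 9.31e-18), which passed it. The effect at 48 h exceeded that at 12 h by 3.34 ± 0.53 in a test of the difference itself (adjusted p = 8.91e-05), whereas the effects at 24 and 12 h differed by −0.03 (interval −1.11 to 1.06).

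The 2 conditions with dexamethasone parted at 48 h. In SOX17+LSE, without BMP4, TAT was at 6.6 and 6.0 TPM at 12 h, 4.78 and 3.78 TPM at 24 h, 1.79 and 2.95 TPM at 48 h and 112 and 120 TPM at 96 h. Its level at 48 h overlapped with the 1.92 and 1.51 TPM of the starting cjESCs in DK20FA. At 12 h it was above BLSE by 2.0 ± 0.38 (adjusted p = 0.000416), a call lost without the first SOX17+LSE library (1.94, adjusted p = 0.011) and with only the libraries compared (adjusted p = 0.0696). At 24 h it was above by 1.35 (adjusted p = 0.00882), a call that held in 1 of 11 alternatives, the replicate block. It was lost without any 1 of the 4 libraries (adjusted p from 0.0267 to 0.0883) and under the 6 other alternatives (adjusted p from 0.0105 to 0.058). SOX17+LSE and SOX17+BLSE differed by 0.66 at 12 h (interval −0.10 to 1.43) and 0.04 at 24 h (−0.72 to 0.81). At 48 h, when all cells were collected in both, TAT was lower in SOX17+LSE by 3.42 ± 0.38 (log2 difference −3.42, adjusted p = 2.09e-08), and at 96 h the conditions differed by −0.23 (−1.0 to 0.53). The summed level of the 6 PGC markers moved with TAT at 48 h, at 1715 to 1721 TPM with BMP4 against 981 to 1013 TPM without it, and the part of this in the TAT difference was not tested.

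TAT also rose without dexamethasone. In BLSE+IWR1, from cells without the transgenes, it was between 0.97 and 2.89 TPM from 12 to 48 h and at 49.5 TPM in both libraries at 96 h, which was a rise of 4.31 ± 0.38 over the 0.97 and 2.29 TPM of the pre-treated cells (adjusted p = 6.98e-12). In BLSE+IWR1+BMS it reached 23.9 and 16.8 TPM at 96 h. Between sorted cells at 96 h, TAT was higher in SOX17+BLSE than in BLSE+IWR1 by 1.44 ± 0.38 (adjusted p = 0.00887), a comparison in which the transgenes, the starting medium, the pre-treatment and the agents all differ. At 48 h, in unsorted cells, this difference was 4.01 (adjusted p = 2.61e-10). The level then fell to 4.02 and 6.66 TPM at day 6 (log2 difference −3.02, adjusted p = 2.13e-06) and to 0.24 and 1.08 TPM in xrOvaries at day 20 (−1.95, adjusted p = 0.000106), and stayed at 1.88 TPM or less at days 40 and 70.

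**Figure D3:**
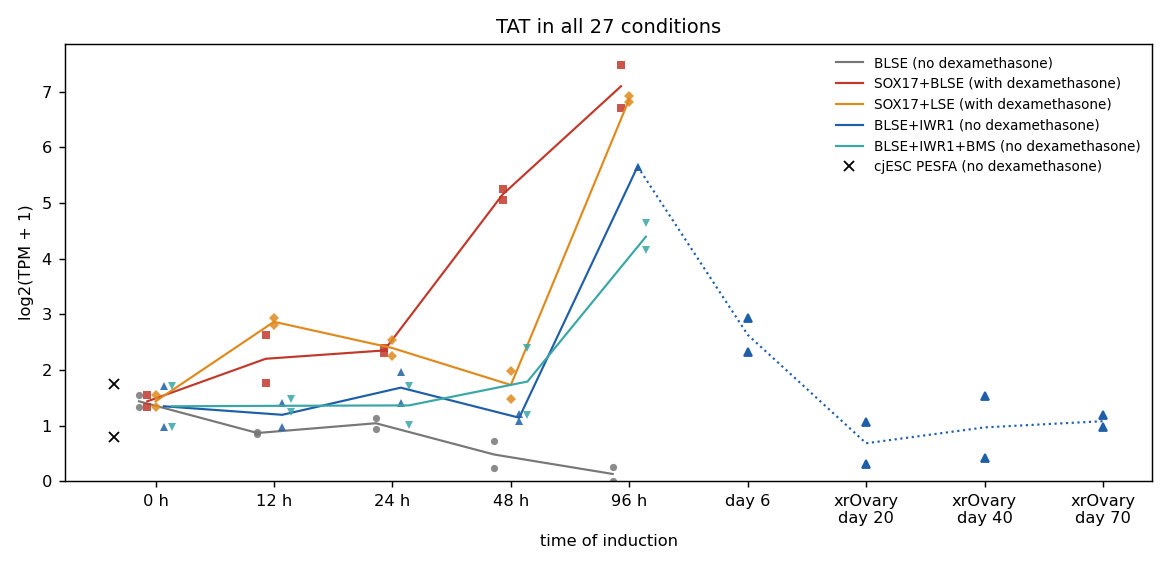
log2(TPM + 1) of TAT in all 27 conditions, 1 point per library and lines through the means of 2 libraries. TAT rises in SOX17+BLSE by 48 h, is high in the 4 sorted series at 96 h with or without dexamethasone, stays low in BLSE, and falls from 96 h to day 6 and the xrOvaries.

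In the order of the 27 condition means, TAT was highest in SOX17+BLSE and SOX17+LSE at 96 h, whose libraries overlapped, then in BLSE+IWR1 at 96 h, SOX17+BLSE at 48 h and BLSE+IWR1+BMS at 96 h, each set apart from the next by its libraries. From the sixth place down, starting with SOX17+LSE at 12 h, neighbours overlapped with 1 exception, between BLSE at 24 h and at 12 h, and 21 of the 26 neighbouring pairs of the whole order overlapped. FKBP5 overlapped in 17 of 26 neighbouring pairs, TSC22D3 and KLF9 in 21, SGK1 in 24, DUSP1 and NR3C1 in 25 and PER1 in all 26.

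Counted over the 6 members tested, the dexamethasone conditions had few calls before 48 h. Against BLSE in limma at an adjusted p under 0.01, SOX17+BLSE had 0 of 6 members called at 12 h, where 2.4% of all 11197 genes were called. It had 0 of 6 at 24 h (7.56% of all genes), with 1 and 2 members at an unadjusted p under 0.05. At 48 h 3 of 6 were called (16.7% of all genes), TAT and KLF9 higher and FKBP5 lower. At 96 h it was 5 of 6 (45.4% of all genes), TAT and TSC22D3 higher and FKBP5, SGK1 and DUSP1 lower. SOX17+LSE had 1 of 6 at 12 h (TAT, 3.8% of all genes), 2 of 6 at 24 h (KLF9 and TAT, 11.8%), 1 of 6 at 48 h (KLF9, 15.9%) and 4 of 6 at 96 h (TAT and KLF9 higher, FKBP5 and SGK1 lower, 41.4%). The BLSE libraries are shared by both sets of comparisons, so these are not independent. With only the libraries compared in the fit, 0 of all 11197 genes were called at 12 or 24 h in either condition. Calls at these times, of members and of the lists below, thus rest on the spread pooled over all 27 conditions. The median difference of the 6 members from BLSE in SOX17+BLSE was 0.08, 0.01, 0.32 and −0.20 from 12 to 96 h, beside 0.05, 0.10, 0.10 and 0.24 over all genes. Scaling the libraries by the median ratio took this last shift of all genes to 0.0023. Between SOX17+LSE and SOX17+BLSE 0 of 6 members were called at 12 h (0.277% of all genes, 1 member at an unadjusted p under 0.05) and at 24 h (2.62%, 3 members), 1 at 48 h (TAT, 8.01%) and 1 at 96 h (TSC22D3, 7.11%). For the change of effect from 12 h, 0 of 6 members and 0% of all genes were called at 24 h, with 0 members at an unadjusted p under 0.05, and 1 member, TAT, at 48 h (2.46% of all genes).

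**Figure D4:**
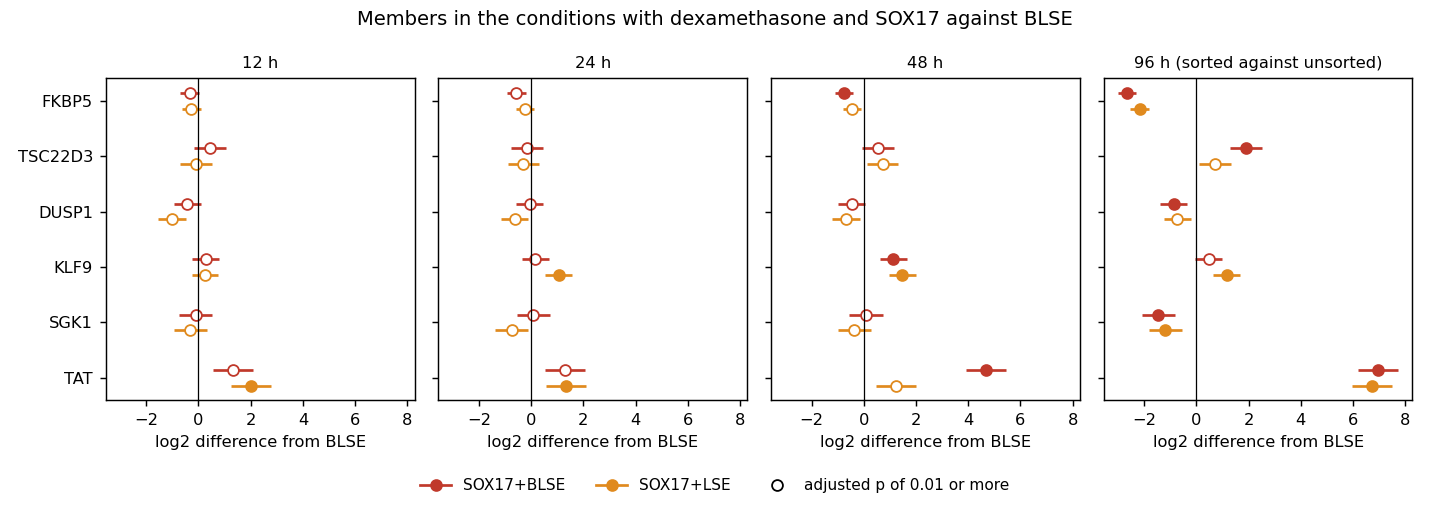
log2 difference of the 6 tested members from BLSE at the same time in SOX17+BLSE and SOX17+LSE, with 95% intervals from limma over 54 libraries. Filled circles are called at an adjusted p under 0.01. Only TAT moves by more than 4 on this scale, at 48 and 96 h in SOX17+BLSE and at 96 h in SOX17+LSE, and FKBP5 lies left of 0 at all 4 times.

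The members also moved from the starting cells, with and without dexamethasone. From cjESC DK20FA to BLSE, 1 of 6 members was called at 12 h (DUSP1 higher, by 1.08, 7.41% of all genes called), 1 at 24 h (KLF9 lower, 11.7%), 1 at 48 h (KLF9 lower, 19.8%) and 3 at 96 h (KLF9 and TAT lower and SGK1 higher, 29.5%). From the same cjESCs to SOX17+BLSE, which had dexamethasone, 1 of 6 was called at 12 h (9.82%), 2 at 24 h (16.8%), 2 at 48 h (26.3%) and 3 at 96 h (43.2%). FKBP5 was among them and lower at each time, by 0.74 at 12 h (log2 difference −0.74, adjusted p = 0.00237) to 2.19 at 96 h (log2 difference −2.19, adjusted p = 4.83e-13). From pre-treated cells to BLSE+IWR1, without dexamethasone, KLF9 was the only call at 12 h (6.79%), 24 h (9.46%) and 48 h (19.2%), where it was lower by 1.55, 1.21 and 2.29 (log2 differences −1.55, −1.21 and −2.29). At 96 h 5 of 6 were called (40.1%), TAT higher and FKBP5, DUSP1, KLF9 and SGK1 lower.

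Between the sorted cells of BLSE+IWR1 and unsorted BLSE at 96 h, with dexamethasone in neither, 4 of 6 members were called (44.1% of all genes), TAT and KLF9 higher and FKBP5 and SGK1 lower. Between SOX17+BLSE and BLSE+IWR1, 3 of 6 were called at 48 h (TAT, KLF9 and TSC22D3 higher, 20.9%) and 2 at 96 h (TAT and TSC22D3 higher, 6.08%). BMS493 gave 0 of 6 calls at 96 h (0.732% of all genes in limma, 3 members at an unadjusted p under 0.05). The cjESCs of the 2 media, which also differ in the transgenes, had 4 of 6 members called (16.8%), with DUSP1 (57.1 and 107 against 23.5 and 25.1 TPM), KLF9 and SGK1 higher and FKBP5 lower in PESFA. Pre-treatment gave 0 of 6 (0.304%, 0 members at an unadjusted p under 0.05). Later on, 1 member was called between 96 h and day 6 (TAT, 2.75%), 2 between day 6 and xrOvary day 20 (TAT and TSC22D3 lower, 20.4%). In limma 0 were called between days 20 and 40 (4.6%) and between days 40 and 70 (2.73%), with 1 member at an unadjusted p under 0.05 in both.

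A wider list of 30 genes known as glucocorticoid targets in other tissues had 26 in the table and 23 that passed the filter. Against BLSE, SOX17+BLSE had 0 of 23 called at 12 h in limma, with 5 at an unadjusted p under 0.05, where 1.61% of all genes were higher and 0.795% lower. At 24 h, where 5.55% of all genes were higher and 2.01% lower, it had 1 call, RGS2, a regulator of G protein signalling, which was higher by 0.70 (adjusted p = 0.000852). At 48 h 4 were higher (17.4%, beside 10.3% of all genes) and 2 lower (8.7%, beside 6.37%), with a median difference of 0 over the 23 beside 0.10 over all genes. The higher ones were CEBPD, a leucine zipper transcription factor (1.95, adjusted p = 0.00288), NFKBIA, the inhibitor of NF-kB (1.53, adjusted p = 3.32e-07), GLUL, glutamine synthetase (1.08, adjusted p = 1.41e-05), and RGS2 (1.07, adjusted p = 5e-07). The lower ones were ANXA1, annexin A1 (−1.41, adjusted p = 0.000136), and SPSB1 (−1.10, adjusted p = 9.44e-05). At 96 h 3 were higher (13%, beside 29.3% of all genes) and 9 lower (39.1%, beside 16.1%), and GLUL, higher at 48 h, was now lower than in BLSE (−0.73, adjusted p = 0.000705). In SOX17+LSE 0 were called at 12 h in limma, with 5 at an unadjusted p under 0.05. From 24 h on, 2 were higher and 2 lower at 24 h, 2 and 3 at 48 h and 4 and 10 at 96 h. Of all genes, 8.07% were higher and 3.75% lower at 24 h, 9.18% and 6.72% at 48 h and 27.9% and 13.5% at 96 h. In SOX17+LSE against SOX17+BLSE at 48 h, 3 of the 23 were lower and 1 higher. Of all genes, 4.61% were lower and 3.4% higher in this comparison. NFKBIA was among the lower ones (log2 difference −1.27, adjusted p = 1.81e-05, limma), while the difference of CEBPD was −0.71 with an interval from −1.71 to 0.29.

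**Figure D5:**
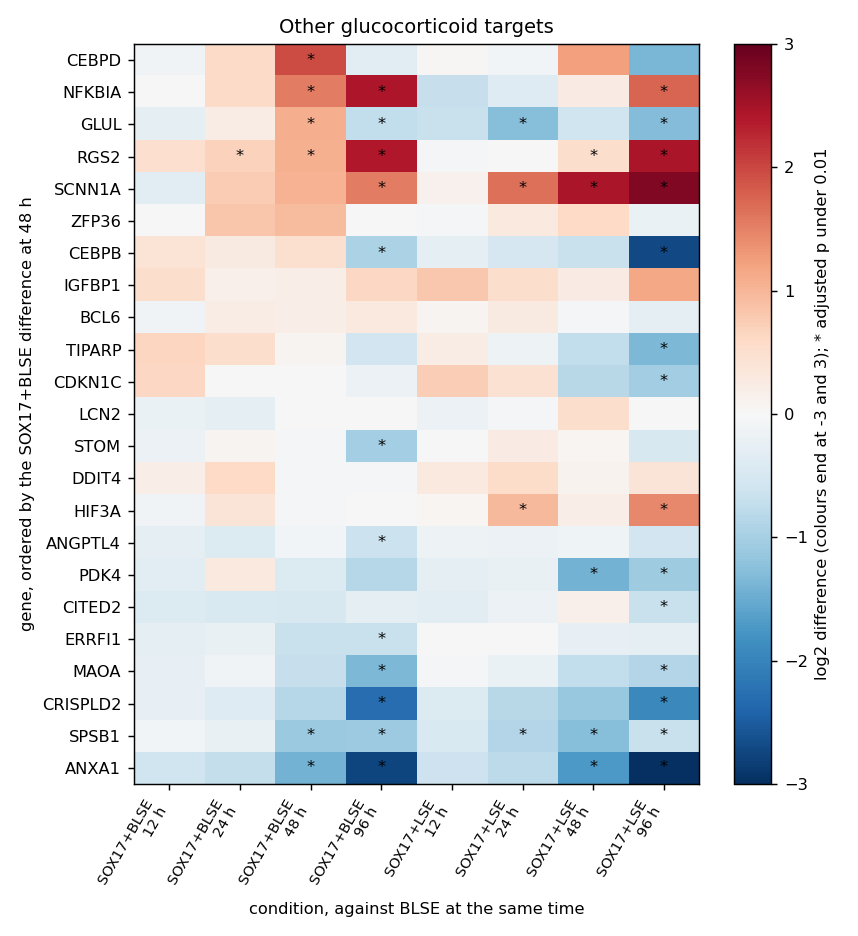
log2 difference from BLSE of 23 other glucocorticoid targets at each time in SOX17+BLSE and SOX17+LSE, ordered by the SOX17+BLSE difference at 48 h, with asterisks at an adjusted p under 0.01. At 12 h none of the 23 genes passes in either condition, and at 96 h more genes are lower than higher in both.

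The receptor's helpers stayed abundant. Of 17 genes of the receptor machinery (chaperones, co-chaperones and coregulators) 11 passed the filter, and against BLSE none was called in SOX17+BLSE at 12 or 24 h in limma. At 48 h HSP90AB1, an HSP90 gene, was lower by 0.37 (log2 difference −0.37, adjusted p = 0.00318, limma), as was DNAJA1, an HSP40 co-chaperone (−0.41, adjusted p = 0.00152). These were the only 2 of the 11 called at that time, so HSP90AA1, the other HSP90 gene of the list, was not. Steroid handling genes had 0 of 6 called up to 48 h. At 96 h HSD11B2, which inactivates cortisol, and NR3C2, the mineralocorticoid receptor, were higher (1.65 and 1.76, adjusted p = 0.000515 and 1.33e-08, limma), both named here after their values were seen. They made 2 of 6 higher (33.3%), beside 29.3% of all genes. SOX17+BLSE held NR3C2 at 3.22 and 1.97 TPM and there were 1.66 and 1.33 TPM in BLSE+IWR1, against 0 and 0.09 TPM in BLSE. Of the 10 circadian clock genes tested, 1 was called at 48 h, BHLHE40, a repressor of clock genes, lower by 1.77 (log2 difference −1.77, adjusted p = 0.000243), and 0 at 12 and 24 h. In the same comparisons 2.4% of all genes were called at 12 h, 7.56% at 24 h, 16.7% at 48 h and 45.4% at 96 h. Counts of 0 of 6 or 1 of 10 up to 48 h, and 2 of 6 at 96 h, therefore do not set these small lists apart from all genes.

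The enzymes of tyrosine and phenylalanine breakdown did not move one way. Of 7 genes of this list, TAT included, all 7 passed the filter and 2 were called in SOX17+BLSE at 12 and 24 h, 3 at 48 h and 4 at 96 h, all higher, where 1.61%, 5.55%, 10.3% and 29.3% of all genes were. The median of the 7 differences was 0.17, −0.28, 0.47 and 1.08 from 12 to 96 h. QDPR and PCBD1, which regenerate the tetrahydrobiopterin cofactor of the aromatic amino acid hydroxylases, were higher from 12 h (0.83, adjusted p = 6.1e-05, and 0.62, adjusted p = 0.00922). At that time SOX17+BLSE held QDPR at 838 and 975 TPM, above the 498 and 519 TPM of BLSE. HPD, the enzyme that acts after TAT, was the fourth at 96 h (3.19, adjusted p = 2.13e-10, named after its values were seen), where SOX17+BLSE held 8.05 and 8.26 TPM, against 8.06 and 8.68 TPM in BLSE+IWR1 without dexamethasone, and 0 in both BLSE libraries. The 3 enzymes of the later steps, HGD, GSTZ1 and FAH, were not called in SOX17+BLSE at any time. Their differences there ran from −1.51 to −0.62 for HGD, from −0.69 to −0.12 for GSTZ1 and from −0.78 to 0.17 for FAH. In SOX17+LSE HGD was lower at 12 h (−1.61, adjusted p = 0.00734), 24 h (−1.80, adjusted p = 0.00097) and 48 h (−1.72, adjusted p = 0.00106), while 3, 3, 2 and 4 of the 7 were higher from 12 to 96 h. Of all genes in SOX17+LSE, 2.14%, 8.07%, 9.18% and 27.9% were higher from 12 to 96 h, and 1.65%, 3.75%, 6.72% and 13.5% lower.

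Markers of liver and endoderm cells were measured because TAT is best known in hepatocytes. Of 14 hepatocyte markers 12 had a row, 8 passed the filter and 1, the apolipoprotein APOA1, was called in SOX17+BLSE, at each time and higher (1.79 at 12 h, adjusted p = 0.00682, and 3.55 at 48 h, adjusted p = 3.71e-08). Of all genes, 1.61%, 5.55%, 10.3% and 29.3% were higher in SOX17+BLSE from 12 to 96 h. The summed level of the 12 hepatocyte markers at 48 h was 589 to 670 TPM with SOX17+BLSE, next to 350 to 406 TPM with BLSE, and 406 to 476 TPM next to 299 to 339 TPM at 96 h. Sorted cells of 96 h without dexamethasone held 421 to 541 TPM in BLSE+IWR1 and 583 to 709 TPM in BLSE+IWR1+BMS. Albumin (ALB) was at 0.39 TPM or less and AFP at 0.24 TPM or less in all 16 libraries with dexamethasone, and 5 of the 12 markers were at 0 in both SOX17+BLSE libraries of 96 h. Other markers of the list reached higher levels in these 16 libraries, up to 405 TPM for APOA1, 366 TPM for transferrin (TF), 56.3 TPM for RBP4, 16.8 TPM for TTR and 5.2 TPM for FGG. In SOX17+LSE at 96 h, where TAT was at 112 and 120 TPM, the sum of the 12 was 593 to 849 TPM with 3 at 0 in both libraries, and APOA1 (3.06, adjusted p = 1.37e-07), TTR (4.10, adjusted p = 8.2e-09) and TF (0.51, adjusted p = 0.000348) were higher than in BLSE. The part of these markers in the TAT difference was not tested. Of 8 definitive endoderm markers in the table, the transcription factor HNF4A was higher from 12 h (2.09, adjusted p = 0.000106). At 48 h FOXA2 (4.19, adjusted p = 1.1e-09), HNF4A (3.47) and HHEX (1.47, adjusted p = 0.00122) were higher and CER1 lower (−3.38, adjusted p = 0.00617). At 48 h the summed level of the 8 was 161 to 163 TPM with SOX17+BLSE, 163 to 177 TPM in BLSE and 362 to 471 TPM in SOX17+LSE. In SOX17+LSE FOXA2 (4.98, adjusted p = 1.56e-11) and HNF4A (3.76, adjusted p = 9.52e-11) were also higher than in BLSE at that time, with TAT at 1.79 and 2.95 TPM. All 6 PGC markers were higher in SOX17+BLSE than in BLSE at 48 and 96 h, and their part in the member differences was not tested. Among them SOX17 was also carried as a transgene, and PRDM1 (BLIMP1) was the gene of the reporter used for sorting at 96 h. The result for PRDM1 at 96 h was therefore set by the sorting.

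Of 12 immediate early genes tested, a list of quick responders to signals that includes DUSP1, 0 were called in SOX17+BLSE at 12 h and 2 at 24 h, FOS (2.0, adjusted p = 0.00128) and EGR1 (1.5, adjusted p = 0.00591). At 48 h FOS (2.08, adjusted p = 0.000362) and the orphan receptor NR4A1 (2.20, adjusted p = 1.05e-05) were higher and ATF3 lower (−1.93, adjusted p = 0.0002). Of all genes, 2.4% were called at 12 h, 7.56% at 24 h and 16.7% at 48 h in this comparison.

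The members did not share a single pattern over the 27 condition means of log2(TPM + 1), which are described here without a test because the conditions share starting cells and are steps of the same courses. Among the 15 pairs of the 6 tested members, Pearson's r was highest between FKBP5 and SGK1 (0.79) and between TSC22D3 and TAT (0.666), and lowest between FKBP5 and KLF9 (−0.424). The genes most like TAT were MYL3 (r = 0.882), a myosin light chain, PCDH11X (0.875), a protocadherin, and NTSR1 (0.863), a neurotensin receptor. SOX17+BLSE at 48 h held MYL3 at 31.1 and 30.1 TPM, and BLSE+IWR1 at 96 h at 82.4 and 92.4 TPM. Those most like FKBP5 were LPCAT1 (0.982), STRAP (0.979) and UHRF1 (0.976). Those most like TSC22D3 were TMEM192 (0.877), MPZL1 (0.856) and RPS27L (0.849), and those most like DUSP1 were ACTC1 (0.85), PCDH7 (0.841) and LHFPL6 (0.815). KLF9 was closest to FBLN5 (0.831), PARP8 (0.823) and GEM (0.813), and SGK1 to LPL (0.893), BTG1 (0.892) and BRINP1 (0.89). No member was among the likest genes of another.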

How the data were processed

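RNA-seq of 54 marmoset libraries was used, 2 for each of 27 conditions. Per the study's methods, the authors read single ends of directional poly(A) libraries, aligned them with STAR to a marmoset genome, removed alignments of low mapping quality and estimated levels with RSEM, tools that the submitters' processing notes also name. The deposited values are TPM, written with 2 decimals, for 14812 genes. The sums per library ran from 790300 to 839203, and read depth is not kept in TPM, so no counting error can be given.

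Log2(TPM + 1) was fitted with limma 3.58.1 in R 4.3.3, with 1 mean per condition, 27 residual degrees of freedom over all libraries and an intensity trend. The 11197 genes at 1.5 or more in at least 1 library entered two-sided tests whose p-values were adjusted over all of them by the Benjamini-Hochberg method, and a gene was called at an adjusted p under 0.01. Differences are on the log2(TPM + 1) scale, which understates those of low genes. For a pair of 2-library groups the smallest p of an exact permutation test is 0.33. The fit was tested on simulated data.

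The members and gene lists were chosen with earlier results of these data known. In 2 of the lists 1 gene each is not reported here and was left out of the counts. Of the lists, the genes called in SOX17+BLSE at 12, 24 or 48 h were named, at most 6 a list, and for likeness the 3 genes with the highest r. Alternatives were another pseudocount (0.1), no filter, only the libraries compared, a replicate block, median-ratio scaling, quantile normalization, no trend, a rule of more than 4-fold, and leaving out each library. No value column lacked a sample. Promoter and protein sequences were not used here, so the planned search for response elements was not run.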

Additional observations from a re-analysis of the deposited data

Results flagged for a closer look

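The effect of dexamethasone and SOX17 on TAT differed between times. In SOX17+BLSE against BLSE the log2 difference at 48 h exceeded that at 12 h by 3.34 (adjusted p = 8.91e-05 in a test of the difference itself by limma over 11197 genes, of which 276 passed). Both SOX17+BLSE libraries lay above both BLSE libraries at both times. Groups of 2 libraries are too small to look for single libraries that stand apart.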

How the results depend on the processing

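The members called against BLSE were counted again under each alternative. In SOX17+BLSE the count of 0 at 12 h held under all of them. The count of 0 at 24 h became 1 (FKBP5, lower) under median-ratio scaling and quantile normalization. The 4 counts of SOX17+LSE from 12 to 96 h were 1, 2, 1 and 4. That at 24 h was 1 with a pseudocount of 0.1, without the filter, with median-ratio scaling and with no intensity trend, with TAT the call that was lost, and 0 with quantile normalization, where KLF9 was lost too. That at 48 h was 2 with the pseudocount of 0.1 and under both scalings, and that at 12 h was 2 with median-ratio scaling. With only the libraries compared, the counts were 0, 0, 0 and 2 in SOX17+LSE, and in SOX17+BLSE 2 at 48 h, where KLF9 lost its call, and 3 at 96 h, where DUSP1 and SGK1 did. Over all 11197 genes this fit called 0 at 12 and 24 h in both conditions. It called 307 at 48 h and 2313 at 96 h in SOX17+BLSE, and 379 and 1997 in SOX17+LSE. A rule of more than 4-fold gave 0, 0, 0 and 2 in SOX17+LSE, and 1 at 48 h and 2 at 96 h in SOX17+BLSE. Leaving out 1 library at a time gave 0 to 1 members at 24 h, 1 to 3 at 48 h and 4 in every case at 96 h in SOX17+BLSE, and 0 to 1 at 12 h, 0 at 24 h, 1 at 48 h and 3 to 4 at 96 h in SOX17+LSE, where a lone library is assumed to vary like the other groups. The cause of these changes was not tested.

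TAT in SOX17+BLSE kept its call under all 11 alternatives at 48 h (log2 difference 4.43 to 6.24) and at 96 h (6.58 to 9.62), as did FKBP5 at 96 h (−2.96 to −2.50). Of 528 recomputed member values, 465 kept direction and side of the threshold, 37 lost a call, 9 gained one and 17 changed sign, at adjusted p of 0.762 or more. Median-ratio scaling turned SGK1 in SOX17+BLSE to −0.021 at 24 h and −0.0020 at 48 h, and quantile normalization to −0.088 and −0.042, with KLF9 at −0.023 at 24 h. Without 1 library, SGK1 in SOX17+BLSE ranged from −0.37 to 0.16 at 12 h, −0.22 to 0.40 at 24 h and −0.22 to 0.39 at 48 h, DUSP1 from −0.25 to 0.12 at 24 h, and in SOX17+LSE SGK1 from −0.64 to 0.0056 and TSC22D3 from −0.32 to 0.14 at 12 h and FKBP5 from −0.52 to 0.054 at 24 h.

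The labels do not say that a replicate number marks a shared batch, and the deviations of same-numbered libraries had correlations from −0.0047 to 0.272. When the replicate block was added, the number of members called was the same in all 8 comparisons, 3 at 48 h and 5 at 96 h in SOX17+BLSE, and TAT at 48 h differed by 4.67 (adjusted p = 1.06e-11).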
